A study of Homo sapiens with 4 samples.

Results

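The BTG and TOB genes encode a family of antiproliferative proteins, and 7 array probes carried the names of 5 of its 6 human members. The members were BTG1, BTG2, BTG3, BTG4, TOB1 and TOB2, taken as every probe that the array's annotation names for one of them. No probe carries the name BTG3 in that annotation, so BTG3 was not analysed here. The whole series holds 26423 probes, of which 20377 have a gene name, for 17778 genes. The family was chosen on measured values, namely the large difference of a BTG1 probe between berberine-treated and control cells. Its values are therefore given as a description, without a test of their own.

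The 4 arrays measured total RNA, labelled with Cy5, from HepG2, an established human hepatocellular carcinoma line grown in serum-containing medium. The 2 control samples received no berberine. The 2 berberine samples received this plant alkaloid at 26.95 µM for 24 hours, and the series concerned its effect on the viability of these cells. The description field of all 4 samples instead speaks of an MDI-induced differentiation over 48 hours, with 13.47 µM in the berberine samples. The fields disagree, and the first account was followed. Which account holds, and with it the identity of the cells, was not tested. The titles number the replicates, and no label tells whether they came from separate cultures. The p-values therefore reflect only how far these 4 samples spread, which is possibly a technical spread.

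Proteins of this family share an amino-terminal BTG domain. Through it they bind the catalytic deadenylase subunits of the CCR4-NOT complex, which shortens the poly(A) tails of mRNAs, and TOB proteins also bind poly(A)-binding protein through their carboxy-terminal part. Raised BTG or TOB levels are known to slow the entry of cells into S phase, and BTG1 and BTG2 help keep lymphocytes quiescent.

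Each value below is the signal of a mouse array's probe under a gene's name, while the labels give human cells. Median intensity per sample was 62 to 90 over all probes. The 528 genes named as olfactory receptors gave a background range, with a median level of 6.05 and a 95th percentile of 9.24 on the log2 scale. Levels on that scale are log2 of the quantile-normalized intensity plus 1, and a level counts as above background here when it exceeds 9.24. By mean level 1626 of the 17778 genes did so, so most genes lay in the background range. With lists this small, the marker counts are not read as a difference from that share. Of 12 measured hepatocyte markers, 1 lay above 9.24 (RBP4, the plasma retinol carrier). ALB, albumin, averaged 8.35, and AFP, a fetal plasma protein that this line is known to secrete, averaged 4.75. Of 10 adipocyte markers 1 lay above 9.24 (SLC2A4, at 9.40), with ADIPOQ (adiponectin) at 6.65 and FABP4 (a fatty acid binding protein) at 6.52. Of 6 lymphocyte and 7 fibroblast markers 0 lay above it.

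BTG1, first found at a chromosomal translocation in a B cell leukaemia, was the member that stood apart. Its brighter probe (PH_mM_0012820) had a deposited intensity of 479 and 395 in controls 1 and 2, and of 3760 and 4197 in berberine 1 and 2. Both berberine samples lay far above both controls, and the 4 ratios of a berberine to a control sample ran from 7.85 to 10.6. On the log2 scale the BTG1 level was 8.67 ± 0.03 in control and 12.06 ± 0.06 in berberine samples (SD, n = 2 in each group). That is a difference of 3.38 with an SE of 0.11, or 10.4-fold. Each SE in this text is limma's, which draws a probe's or gene's variance toward that of the whole array. An SE therefore does not follow from the printed SDs alone. Among the 20377 named probes the BTG1 difference ranked 4th by size of rise. The control level of 8.67 lay below 9.24, so this fold is set against a control signal in the background range, whereas the berberine level lay above it. These are bulk samples, in which a change in the number of cells that hold an RNA and a change in RNA per cell cannot be told apart.

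The second BTG1 probe (mMC015982) did not show this difference. Its deposited intensities were 96 and 81 in the controls and 98 and 83 in the berberine samples. The groups overlapped, and the pair within each group differed more than the group means did. The log2 difference was 0.04 with an SE of 0.22, at a mean level of 6.50, inside the background range, and its sign turned with median centring (-0.08) and when samples were left out in turn (-0.19 to 0.28). When the levels of both BTG1 probes were averaged, the BTG1 difference was 1.71. Such a split between probes was common on this array: of 56 genes with several probes whose brightest probe passed the limma trend test, 9 had another probe that moved by at least 0.5 in the same direction. Among these 56 genes, 3 had another probe above 9.24, and all 3 had another probe that moved by at least 0.5 in the same direction. The 56 include BTG1 and were picked by their brightest probe in this same contrast. Why the BTG1 probes differed was not tested.

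**Figure D1:**
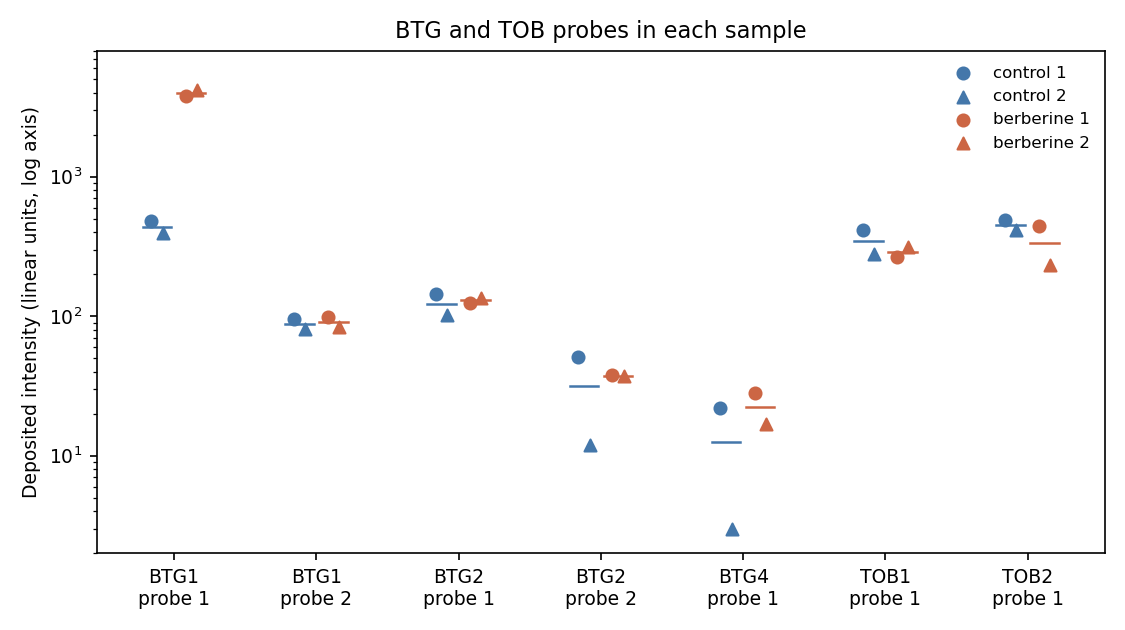
Deposited intensity (log axis) of the 7 BTG and TOB probes in control 1 and 2 (blue) and berberine 1 and 2 (orange), with bars at the group means. The brighter BTG1 probe is at 395 to 479 in the controls and 3760 to 4197 with berberine, while the groups overlap for the other 6 probes.

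BTG2, the closest relative of BTG1 and known as an early response gene, had 2 probes in the background range. Their mean levels were 7.00 and 5.11, against a median of 6.54 over all genes. The brighter one (PH_mM_0014077) read 144 and 102 in the controls and 125 and 135 in the berberine samples. The deposited values overlapped, with both berberine samples between the controls. After quantile normalization the levels were 6.98 and 6.90 against 7.09 and 7.00, so that the groups came apart by a narrow margin, with a difference of 0.10 and an SE of 0.12. With median centring the BTG2 difference was -0.01 and the groups overlapped again. The second BTG2 probe (PH_mM_0004550) read 51 and 12 in the controls and 38 and 37 with berberine. Control 2 was the low sample there, and the normalized difference was -0.11 with an SE of 0.22. Values as deposited and median centring gave 0.57 and 0.45 for this probe, so its direction turned with the scaling.

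BTG4, known for the clearance of maternal mRNA in oocytes, gave the dimmest signal of the family's probes. It read 22 and 3 in the controls and 28 and 17 with berberine (PH_mM_0008923). Control 2, the sample with the most values below 0 on its array (269 probes), was again the low one, and the groups overlapped. The normalized BTG4 level was 4.12 ± 0.18 in control and 4.29 ± 0.32 in berberine samples (SD, n = 2 in each group), under the median of the olfactory receptor genes. The difference was 0.17 with an SE of 0.21, against 1.25 for values as deposited and 1.14 with median centring. Without berberine 1 it was -0.06, so no direction can be read for BTG4.

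TOB1, named as a transducer of the ERBB2 receptor, read 413 and 277 in the controls and 267 and 313 with berberine (mMC009039). Control 1 was high and the other 3 samples lay close together. The normalized TOB1 difference was -0.08 with an SE of 0.15, and it was -0.23 as deposited and -0.34 after median centring. With median centring both berberine samples lay below both controls. Without control 1 the difference was 0.07, so its sign depended on that control.

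TOB2, the close relative of TOB1, read 487 and 413 in the controls and 440 and 232 with berberine (mMR026833). Berberine 1 lay between the controls and berberine 2 lay below both. The normalized TOB2 level was 8.72 ± 0.01 in control and 8.42 ± 0.84 in berberine samples (SD, n = 2 in each group). For scale, the median replicate SD was 0.10 among named probes of like signal, taken as the same of 10 equal groups ordered by mean level. The TOB2 difference was -0.30 with an SE of 0.43. Without berberine 2 it was 0.29 and without berberine 1 it was -0.90, so the sign depended on which berberine sample was kept.

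**Figure D2:**
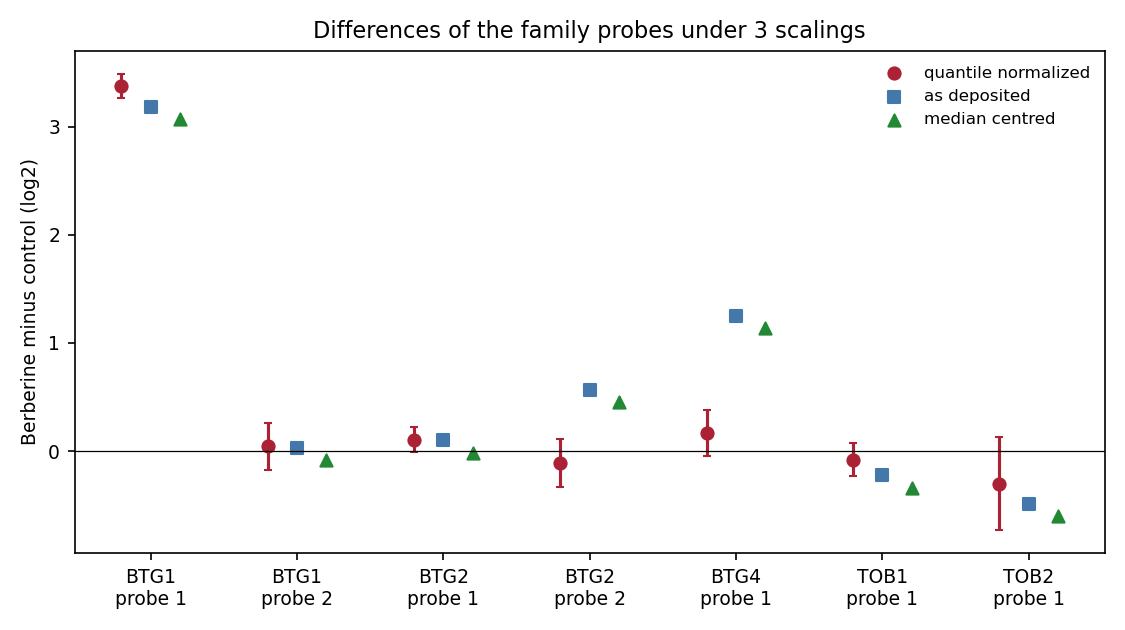
Log2 difference, berberine minus control, of the 7 family probes under 3 scalings: quantile normalized (bars, 1 SE), as deposited and median centred. The brighter BTG1 probe lies between 3.07 and 3.38 under all 3, while the second BTG1 probe, both BTG2 probes and TOB1 lie within 0.57 of 0 and BTG4 moves from 0.17 to 1.25.

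Read as a family, the members did not share a direction. The 6 probes other than the brighter BTG1 probe had log2 differences from -0.30 to 0.17. The median difference over the 5 members, each by its brightest probe, was 0.10, against -0.01 over all 17778 genes. For 5 of those 6 probes the difference was smaller than the median absolute difference of named probes of like signal, which ran from 0.16 to 0.30 in their groups. TOB2 was the exception, at 0.30 against 0.18. By its mean over 4 samples, the brighter BTG1 probe, at 3.38, lay in the brightest of the 10 groups. The 95th percentile of the absolute difference there was 1.08. The berberine samples lift that mean. The BTG1 control level alone, 8.67, lies within the next group (7.96 to 8.97), where the percentile was 0.89. The family was picked for this BTG1 difference, so nothing is read from its size against these percentiles.

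BTG1 was the 1 member of 5 past an adjusted limma p of 0.05, on the higher side, in the main test and in the trend test, which lets the variance depend on signal. Over all genes 0.045% were called higher and 0.00562% lower in the main test, and 0.962% higher and 0.501% lower in the trend test. Both berberine samples lay above both controls for 2 members (BTG1 and BTG2) and below them for 0, where 21.7% of all genes lay above and 23.3% below. BTG1 passed in 6 of 14 alternative settings. The 8 in which it did not were values as deposited, median centring, the mean of both probes, the replicate number as a block, and each of the 4 samples left out. Because the family was picked for BTG1 in this same contrast, nothing is read from these counts.

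**Figure D3:**
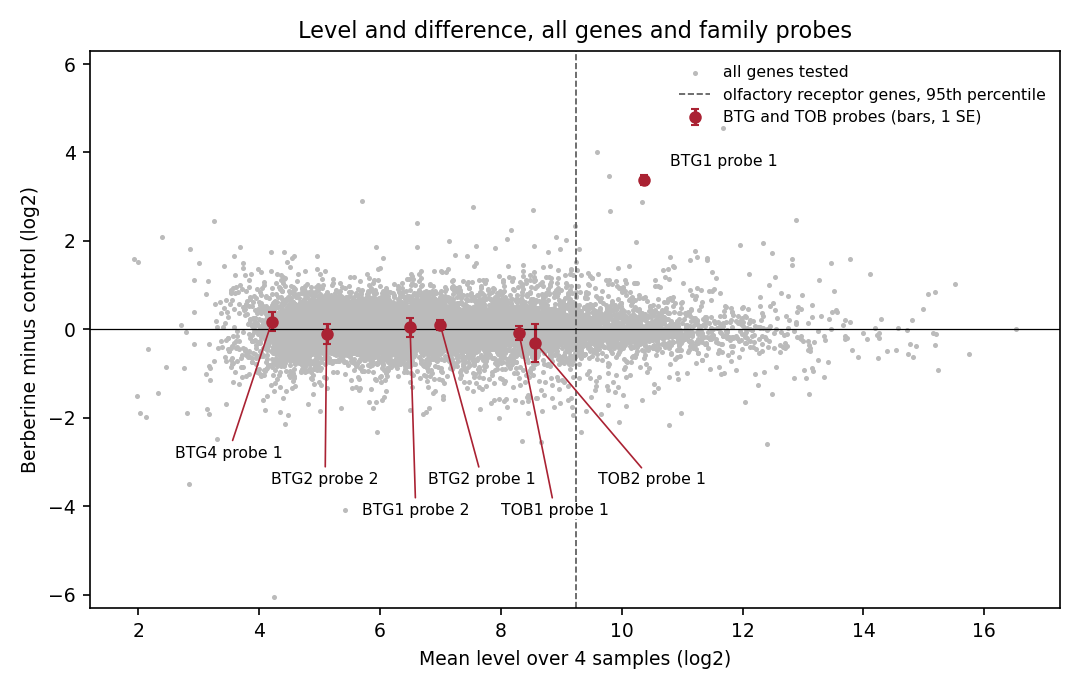
Mean level over the 4 samples (x axis, log2) against the difference, berberine minus control (y axis, log2), for all 17778 genes (grey) and the 7 family probes (red, bars 1 SE). The dashed line at 9.24 marks the 95th percentile of the olfactory receptors. By mean level the brighter BTG1 probe is the 1 family probe to its right, though its control level of 8.67 is below 9.24.

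The stretches upstream of the BTG1 and BTG2 starts are shown because BTG1 stood apart and BTG2, its closest relative, did not. Each run is the 250 bases before the human transcription start in RefSeq's promoter table (GRCh38.p14), from 5′ to 3′ on the gene's strand. BTG1 lies on the minus strand and its run is chr12:92145847-92146096, with a GC content of 56.4%. BTG2 lies on the plus strand and its run is chr1:203305269-203305518, with 74.8%, where the median over all such runs was 58.0%. Capitals mark matches, on either strand, to motifs picked with these sequences and results known: the forkhead core TGTTTAC, the cAMP response element half-site TGACG, the CCAAT box, the TATA box TATAAA and the core TGATGNAA that ATF4 and C/EBP factors bind together.
BTG1: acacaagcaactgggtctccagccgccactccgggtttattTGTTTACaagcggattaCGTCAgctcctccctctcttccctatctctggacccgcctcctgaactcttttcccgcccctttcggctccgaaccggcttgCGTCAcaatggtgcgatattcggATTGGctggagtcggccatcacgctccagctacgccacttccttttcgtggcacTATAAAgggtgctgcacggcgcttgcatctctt
BTG2: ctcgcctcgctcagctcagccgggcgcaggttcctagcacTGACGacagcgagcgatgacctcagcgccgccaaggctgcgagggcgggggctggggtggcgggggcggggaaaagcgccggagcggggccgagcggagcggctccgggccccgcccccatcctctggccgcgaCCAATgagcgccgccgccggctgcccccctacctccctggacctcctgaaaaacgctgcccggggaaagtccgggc

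The BTG1 run held 1 forkhead core, 2 cAMP half-sites on the opposite strand, 1 CCAAT box on the opposite strand and 1 TATA box that ends 28 bases before the start. The BTG2 run held 1 cAMP half-site and 1 CCAAT box. Neither held the ATF4 and C/EBP core. The forkhead core occurred in 2.98% of 35116 such runs and the TATA box in 10.7%. The cAMP half-site occurred in 21.2%, the CCAAT box in 32.0% and the ATF4 and C/EBP core in 3.14%. The runs of BTG3, BTG4, TOB1 and TOB2 held neither the forkhead core nor the TATA box. The TOB1 run held 1 cAMP half-site and 1 CCAAT box, as the BTG2 run did, and the runs of BTG3, BTG4 and TOB2 held neither. These are matches of letters only: no binding was measured here.

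The family acts through the enzymes that shorten poly(A) tails and the proteins on those tails. Of 27 listed genes of deadenylation and poly(A) binding, 16 were measured, and 0 passed the main or the trend limma test, with 4 of the 16 at an unadjusted limma p under 0.05. Over all genes that share was 13% (2318 of 17778), and with lists this small no count of this kind is read as a difference from it. Their median log2 difference was 0.12 (-0.01 with median centring), against -0.01 over all genes (-0.03 with median centring). The catalytic subunits CNOT7 and CNOT8, to which the BTG domain binds, were not analysed here, and of the CCR4-NOT subunits CNOT9 was the 1 measured, under its older name RQCD1, at a log2 difference of 0.12. PAIP1, which links poly(A)-binding protein to translation, read 6.99 and 6.97 in the controls and 7.82 and 7.72 with berberine on the log2 scale, 0.79 apart (limma adjusted p = 0.144, trend 0.0511). PABPC1L, a poly(A)-binding protein best known in oocytes, read 7.85 and 7.89 against 8.52 and 8.79, also 0.79 apart (limma adjusted p = 0.203, trend 0.0721). For both genes the berberine samples lay above the controls, and neither passed. They were named for the lowest 2 p-values of the list, so nothing is read from this separation. In the list both berberine samples lay above both controls for 6 of 16 genes and below for 4, against 21.7% and 23.3% of all genes.

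All 12 listed partners of BTG and TOB proteins were measured, and 0 passed either limma test, with 2 of the 12 at an unadjusted limma p under 0.05, against 13% of all genes. The median log2 difference of the partners was 0.03, but 0.29 as deposited, 0.18 with median centring and -0.06 without berberine 2, so it gives no steady direction. Over all genes the median was 0.08 as deposited and -0.03 with median centring. CPEB4, a cytoplasmic polyadenylation factor, read 6.82 and 6.61 in the controls and 7.75 and 7.60 with berberine, 0.96 apart (limma adjusted p = 0.154, trend 0.0565). ESR1, the oestrogen receptor, read 6.47 and 6.51 against 6.15 and 5.92, a difference of -0.45 (limma adjusted p = 0.331). The groups did not overlap for either gene, and neither passed. These 2 genes, too, were named for the lowest p-values of their list. Among the 12 partners both berberine samples lay above both controls for 2 and below for 1, against 21.7% and 23.3% of all genes. PRMT1, the arginine methyltransferase that BTG1 and BTG2 bind, was at 0.10 with an SE of 0.21, and at -0.14 without berberine 2.

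Of 13 factors known to control BTG and TOB genes, 10 were measured and 0 passed the main limma test, with 1 of the 10 at an unadjusted limma p under 0.05, against 13% of all genes. In this list both berberine samples lay above both controls for 2 of the 10 and below for 0, against 21.7% and 23.3% of all genes. ATF4, a transcription factor of the stress response, rose in the trend test. It read 7.53 and 7.58 in the controls and 8.52 and 8.56 with berberine, 0.99 apart (limma trend adjusted p = 0.0214, main 0.111). Both berberine samples lay above both controls, as for 21.7% of all genes, and the ATF4 mean of 8.05 lay below 9.24. FOXO3, a forkhead factor known to activate BTG1, was at 0.12 with an SE of 0.21, and at -0.14 without control 1. The list's median log2 difference was 0.14, and it was 0.40 as deposited and 0.29 with median centring. The medians over all genes under those 2 scalings were 0.08 and -0.03.

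The family is known to restrain the step from G1 to S phase, for which 14 of 15 listed genes were measured. Of these 0 passed the main limma test, with 3 of the 14 at an unadjusted limma p under 0.05, against 13% of all genes. Both berberine samples lay above both controls for 6 of the 14 and below for 5, against 21.7% and 23.3% of all genes. With a list this small these counts are not read as a difference from those shares. E2F1, which drives genes needed for DNA replication, fell in the trend test. It read 11.05 and 11.42 in the controls and 9.72 and 9.91 with berberine, a log2 difference of -1.42 (limma trend adjusted p = 0.0286, main 0.126). CCND1, cyclin D1, whose gene BTG2 and TOB1 are known to repress, was at 0.17 with an SE of 0.10, but its sign was negative under both other scalings (-0.04 as deposited, -0.15 median centred). The median of the list was -0.10 (-0.01 as deposited, 0.17 without the dimmest 30% of genes), so it gives no steady direction.

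**Figure D4:**
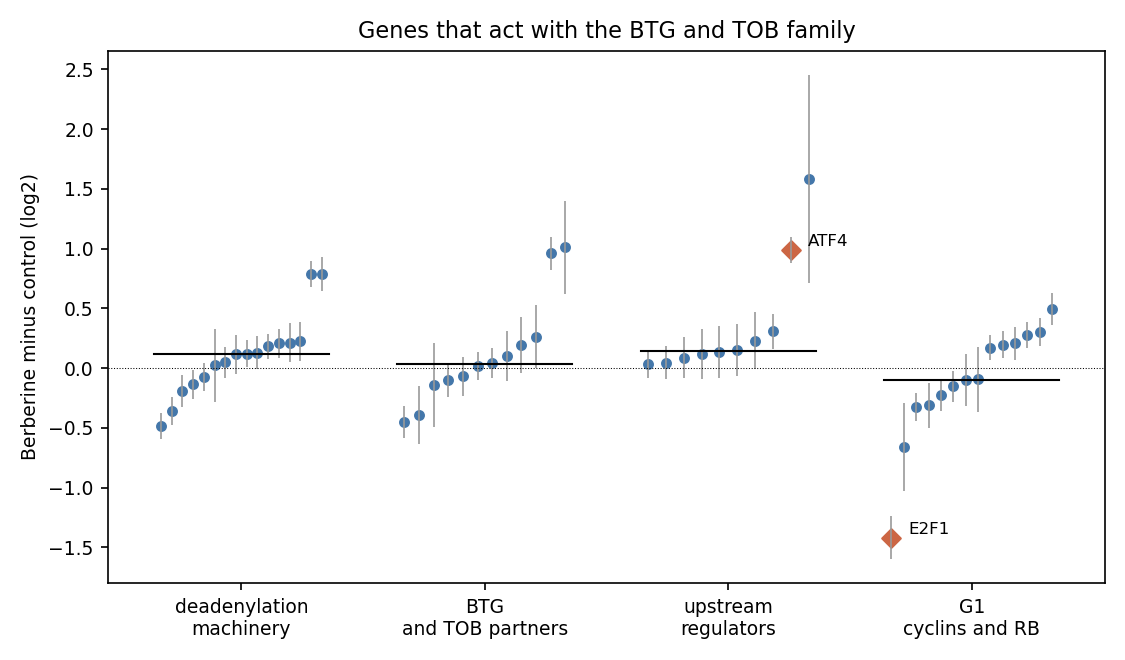
Log2 difference, berberine minus control, of each measured gene of the 4 lists (points, bars 1 SE, black lines the list medians); orange diamonds passed the limma trend test. ATF4 at 0.99 and E2F1 at -1.42 are the 2 that passed, and the medians lie between -0.10 and 0.14.

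The genes whose 4 values lay nearest to those of the brighter BTG1 probe were found by Euclidean distance between levels centred on each gene's mean, over 4 samples. RNU2, named for a spliceosomal RNA, came first, at a distance of 0.21. It read 8.18 and 7.94 in the controls and 11.49 and 11.57 with berberine. The others were LIF, a cytokine of the interleukin-6 family (0.61), HIVEP2, a zinc finger factor (0.63), RN7SK, a small nuclear RNA (0.63), and BHLHE40, a repressor of clock genes (0.68). In each of the 5 genes both berberine samples lay above both controls by over 2 on the log2 scale, as the measure of likeness requires of genes near BTG1. All 5 passed the limma trend test, and LIF did not pass the main one (limma adjusted p = 0.0771). HIVEP2 and BHLHE40 had mean levels of 7.54 and 8.53, in the background range. RNU2, LIF and RN7SK had means above 9.24 (9.80, 10.33 and 9.59), but only through the berberine samples. The control means of all 5 genes lay below 9.24: RNU2 8.06, LIF 8.89, HIVEP2 6.16, RN7SK 7.59 and BHLHE40 7.18.

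**Figure D5:**
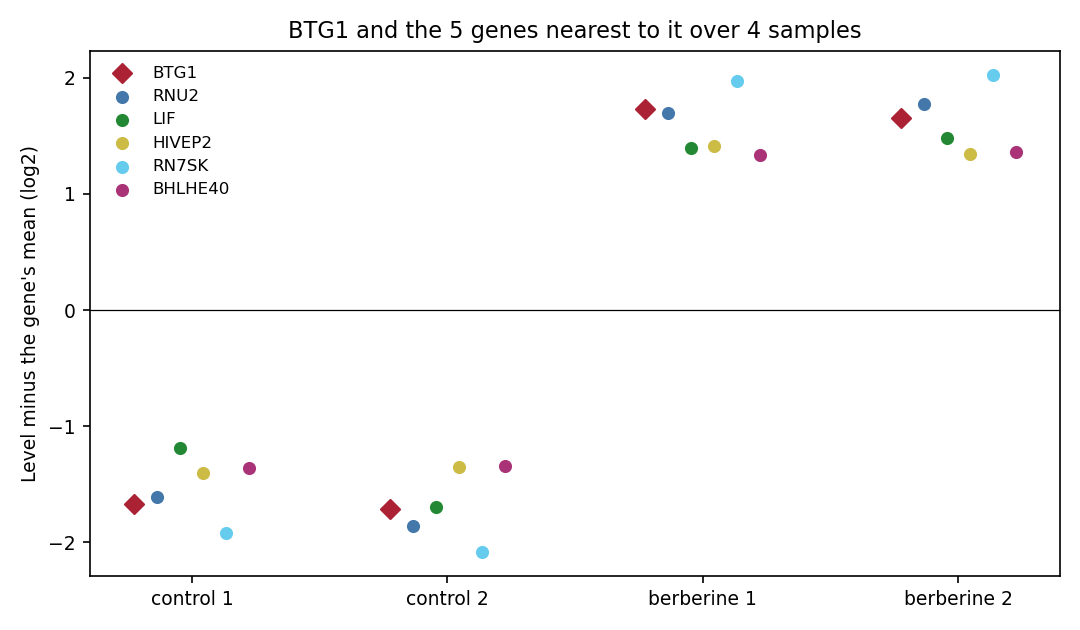
Level minus the gene's mean (log2) in each of the 4 samples for BTG1 (diamonds) and the 5 genes nearest to it (circles). BTG1 and RNU2 lie closest together, with a distance of 0.21, and all 6 genes lie below 0 in both controls and above 0 in both berberine samples.

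Summed levels of the marker lists, on the linear scale, lay apart between the groups, and single markers carried most of these gaps. The sum over the 12 hepatocyte markers was 16444 to 17600 in the controls and 7931 to 9569 with berberine. One probe of RBP4 made up 14628 to 15621 and 6542 to 7828 of it, and the other 11 markers summed to 1817 to 1979 against 1389 to 1741. The median log2 difference of the hepatocyte list was -0.07, and the other 2 probes of RBP4 were at -0.15 and -0.22, against -1.08 for the bright one (limma trend adjusted p = 0.025), the 1 marker of these lists past that test.

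For the 6 lymphocyte markers, a cell type in which BTG1 is abundant, the sum was 1629 to 2679 in the controls and 1135 to 1161 with berberine. Without CD79A, a part of the B cell receptor, it was 1047 to 1051 against 764 to 861. The median of the lymphocyte list was -0.28, and the mean level of every one of its markers lay in the background range. For the 7 fibroblast markers the sum was 419 to 433 against 507 to 512, but without POSTN, a matrix protein, it was 306 to 318 against 289 to 290, the opposite direction, and the list's median was -0.06. For the 10 adipocyte markers it was 1735 to 1750 against 1635 to 1680, and without RETN, the hormone resistin, it was 1583 to 1625 against 1576 to 1620, where the groups overlapped. The part of these shifts in the BTG1 reading was not tested.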

How the data were processed

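The deposited values are whole-number intensity readings of 1-colour arrays, not on a log scale. The authors' background correction, normalization and scanner were not given in the sources used here. Intensities were quantile normalized over all probes, set to 0 where negative, and turned into log2(value + 1). Probes were named from the platform annotation supplied for them, without probe sequences. In the test of all genes a gene was its probe with the highest mean, and in the family every probe kept its own values, with SEs from a limma fit of all 20377 named probes. Berberine and control samples were compared with limma 3.58.1 under R 4.3.3 (lmFit and eBayes without a block, 2 residual degrees of freedom), 2-sided, with Benjamini-Hochberg adjustment over 17778 genes at 0.05, and with an intensity trend as an alternative. The fits were tested on simulated data. An exact permutation test cannot go below 0.333 with 2 against 2 samples. The members, the 4 gene lists and the marker lists were chosen with earlier results of these data known, as were the motifs and the use of olfactory receptor genes as background. An older symbol counted for a listed gene where RefSeq gives it to no other. Named from each list were the members past either test (at most 4), otherwise the lowest 2 by p, plus CNOT7, CNOT8, PRMT1, FOXO3, CCND1, E2F1, ALB, AFP, ADIPOQ and FABP4. CNOT9, SLC2A4, RBP4, CD79A, POSTN and RETN were named outside this rule, after their values were seen. The last 4 are the markers with the widest gap between the groups in their lists, without which the sums were also taken. Replicate numbers came from the titles. Python 3.11.15 with matplotlib 3.10.9 drew the figures. The small number of arrays limits the precision.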

Additional observations from a re-analysis of the deposited data

How the results depend on the processing

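The BTG1 difference kept its direction in every alternative run: 3.19 with values as deposited, 3.07 with median centring, 3.23 with a pseudocount of 50, 1.71 with the mean of both probes, and 3.34 to 3.42 with each sample left out. The family was chosen for this large difference in these same samples, so its kept direction is not read as support for it. The number of genes past the limma threshold, 9 in the main fit, was 2 as deposited, 0 with median centring, 3 with every named probe as its own row, 138 without the dimmest 30% of genes, 251 with a pseudocount of 50 and 260 with an intensity trend. It was 0 with the replicate block and 0 to 0 with each sample left out, where 1878 and 1312 to 2763 genes had an unadjusted limma p under 0.05 (2247 with median centring). The replicate numbers were not taken as pairs: the differences between replicates 1 and 2 correlated across genes at 0.09 between the groups. Of the upstream regulators 1 passed with a pseudocount of 50, the intensity trend or the dim filter, and of the G1 genes 1 with the first and second of these; other counts per list stayed at 0. Signs turned for CCND1 (-0.035 as deposited, -0.15 with median centring), FOXO3 (-0.14 to 0.37 with each sample left out) and PRMT1 (-0.14 to 0.34). The causes were not tested. The 6 family probes other than the brighter BTG1 probe all had mean levels below 9.24. TOB2 (8.57), TOB1 (8.30) and the brighter BTG2 probe (7.00) lay above the median level over all genes, 6.54. The second BTG1 probe (6.50), the second BTG2 probe (5.11) and BTG4 (4.21) lay below it. Whether low signal limits these probes was not tested.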
